A study of Rattus norvegicus with 6 samples.

Results

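The 32 genes described here are enzymes of glycolysis, carriers of glucose and lactate, the hypoxia-inducible factor (HIF) subunit Hif1a and genes known as HIF targets. They were taken from a fixed list and looked up by symbol. The 9 counted below as HIF targets are Hilpda, Bnip3, Ero1l, Egln3, Ndrg1, Adm, P4ha1, P4ha2 and Ankrd37. Pdk1, the enzymes and the carriers were counted by their own roles, whether or not HIF also acts on them. All 32 had a row among the 28615 gene names shared by the 4 time-course libraries, and 31 had a row among the 25054 symbols of the 2 injected libraries, where Gapdh had none and Gpi1 and Ero1l appear as Gpi and Ero1a.

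The series profiled single cells of the spinal cord in 6 droplet libraries, 1 per group, so no difference has a replicate and no test between groups was possible. The time course holds an intact cord and cords taken 1, 3 and 7 days after a crush at thoracic level 10. The other pair comes from crushed cords that received MPSS (10 mg/ml) dissolved in PBS, or PBS alone, at 5 sites in the cord 3 days after injury and were collected 2 weeks after injury. The labels give SD rats of 6 to 8 weeks, 5 animals per condition and a 5-mm section for every group, no transgene and no deletion. The labels assign the crush to the intact library as well, and its title was followed here. The time-course tables hold 7654 names of the Gm, Rik or ENSMUSG form used by mouse annotations, against 13 in the injected pair, so the files and the labels leave the species of the time-course cells unsure. Levels were never compared between the 2 sets.

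Glycolysis splits glucose into pyruvate. Lactate dehydrogenase then turns pyruvate into lactate, which leaves the cell through monocarboxylate carriers, or pyruvate enters the mitochondrion through pyruvate dehydrogenase, which the kinase Pdk1 inhibits. When oxygen is low the HIF alpha subunit escapes prolyl hydroxylation by the Egln enzymes, pairs with its partner Arnt and binds DNA at a core ACGTG element near many glycolytic genes, and in phagocytes inflammatory signals are also known to stabilise it.

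Each level is the sum of UMI counts (counted molecules) of a gene in 1 class of cells, divided by all UMIs of the same cells and multiplied by 1000000 (CPM). Cells were assigned to classes one by one from marker genes. A member was called higher or lower when its levels differed at least 2-fold and it had at least 20 UMIs over both sums. Ranges in brackets are 95% intervals that cover counting error only and not differences between animals. Libraries held between 9663877 and 72515788 UMIs, and kept cells a median of 3090, 5339.5, 6648 and 3617 UMIs from intact to day 7 and of 10292 (PBS) and 10417 (MPSS). Pairs of libraries shared 5 to 91 cell barcodes. Gated phagocytes numbered 869, 4205, 6633 and 5079 from intact to day 7. Of these, 808, 1721, 2972 and 3975 were gated as microglia, the resident phagocytes of the cord. Another 32, 2364, 2616 and 461 were gated as macrophages or monocytes. The remaining 29, 120, 1045 and 643 scored too close for either and count among all phagocytes only. The intact phagocytes were therefore nearly all microglia, while macrophages made up most of those of day 1. Markers shared by phagocytes reached a median of 1.97, 2.74, 3.08 and 4.16% of their phagocyte level in endothelial cells from intact to day 7, and 1.82, 2.69, 3.59 and 4.32% in ependymal cells.

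Promoter sequences are shown because many members were higher together at day 1. They are rat sequences, while the species of the time-course cells is unsure, so they may not be those of these cells. The rat RefSeq table (build GRCr8) held 28 of the 32 members, without Slc2a3, Pgk1, Ero1l and Ndrg1. The 250 bases before each start were searched on both strands for ACGTG, which is also contained in CACGTG. The motif was found in 14 of 28 members (50%) and in 18.1% of all 27457 genes of the table. Counted by start, 14 of 32 member starts (43.75%) and 16.6% of 33469 starts held it. The members with a match were Slc16a1, Hk1, Hk3, Aldoa, Aldoc, Pfkfb3, Gapdh, Pgam1, Ldha, Hif1a, Hilpda, Bnip3, P4ha2 and Ankrd37, 4 of the 7 matched HIF targets among them. A match is a string of letters and not a bound site. Slc16a3, Gpi1, Pfkp, Tpi1, Eno1, Pkm and Egln3 were higher in phagocytes at day 1 and have no match. Aldoc was lower and has a match. Whether a match goes with the direction was not tested. As examples, the windows of 4 members with matches that were higher in phagocytes at day 1, and of Ldhb, which was lower and has no match, are given 5′ to 3′ in lower case with ACGTG or its reverse complement CACGT in capitals.
Ldha (chr1:106507842-106508091, plus strand): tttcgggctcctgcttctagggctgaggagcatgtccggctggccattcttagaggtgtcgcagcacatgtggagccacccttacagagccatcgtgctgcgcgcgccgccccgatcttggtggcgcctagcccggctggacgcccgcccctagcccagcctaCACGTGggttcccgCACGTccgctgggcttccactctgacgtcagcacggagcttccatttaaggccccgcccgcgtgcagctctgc
Bnip3 (chr1:203154963-203155212, minus strand): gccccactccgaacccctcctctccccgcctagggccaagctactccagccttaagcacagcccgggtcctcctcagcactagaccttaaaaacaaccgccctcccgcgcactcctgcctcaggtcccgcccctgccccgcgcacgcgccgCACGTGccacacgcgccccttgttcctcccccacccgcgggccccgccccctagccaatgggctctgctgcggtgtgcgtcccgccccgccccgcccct
Hilpda (chr4:58836213-58836462, plus strand): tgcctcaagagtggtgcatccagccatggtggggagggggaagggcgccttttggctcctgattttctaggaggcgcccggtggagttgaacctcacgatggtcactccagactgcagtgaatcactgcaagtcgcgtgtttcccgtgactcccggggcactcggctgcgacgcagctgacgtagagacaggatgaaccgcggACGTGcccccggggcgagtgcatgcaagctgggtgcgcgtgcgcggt
Ankrd37 (chr16:53001257-53001506, plus strand): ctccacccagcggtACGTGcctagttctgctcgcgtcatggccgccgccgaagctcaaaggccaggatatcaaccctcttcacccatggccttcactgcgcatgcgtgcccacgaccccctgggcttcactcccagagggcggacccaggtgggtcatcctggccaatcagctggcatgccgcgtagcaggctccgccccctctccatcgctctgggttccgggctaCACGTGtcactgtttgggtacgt
Ldhb (chr4:177177409-177177658, minus strand): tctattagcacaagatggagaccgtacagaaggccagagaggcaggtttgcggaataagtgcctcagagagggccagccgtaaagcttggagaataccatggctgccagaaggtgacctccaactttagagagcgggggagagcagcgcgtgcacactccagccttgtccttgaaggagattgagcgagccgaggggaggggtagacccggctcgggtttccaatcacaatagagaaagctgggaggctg
Ldha and Ankrd37 hold 3 matches each, Bnip3 2 and Hilpda 1. Each strand was counted, so 1 stretch of CACGTG gives 2 matches. The absence of a match in the Ldhb window says only that these letters do not occur there.

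The first question is how the pathway in phagocytes differed from the intact cord at each time. At day 1, 17 of the 32 members were at least 2-fold higher than in intact phagocytes and 4 were lower. The higher ones were led by the HIF targets Hilpda and Ero1l and the enzymes Pkm and Pfkp, and the lower ones were Ldhb, Pfkfb4, Aldoc and Hk2. Over all 12055 genes with enough UMIs, 14.9% were higher and 23.8% lower. The median log2 ratio was 1.28 for the members and -0.20 for all genes. At day 3 the counts were 9 higher and 8 lower, beside 9.92% and 29.5% of all genes. At day 7 they were 2 and 8, beside 6.62% and 27.8%. The member median passed from 1.28 through 0.39 to -0.30. The share of higher members was above that of all genes at days 1 and 3 and close to it at day 7, where the share of lower members was close to the background as well. These 3 comparisons share the intact library. Scaling by TMM factors in place of totals shifts the log2 ratios of all genes up by 0.22, 0.45 and 0.57 at days 1, 3 and 7. It gives 14 higher and 3 lower members at day 3 and 6 and 3 at day 7. Both the higher and the lower counts of days 3 and 7 thus depend on the scaling. Counts under TMM scaling, here and below, are given without the share of all genes under the same scaling.

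**Figure D1:**
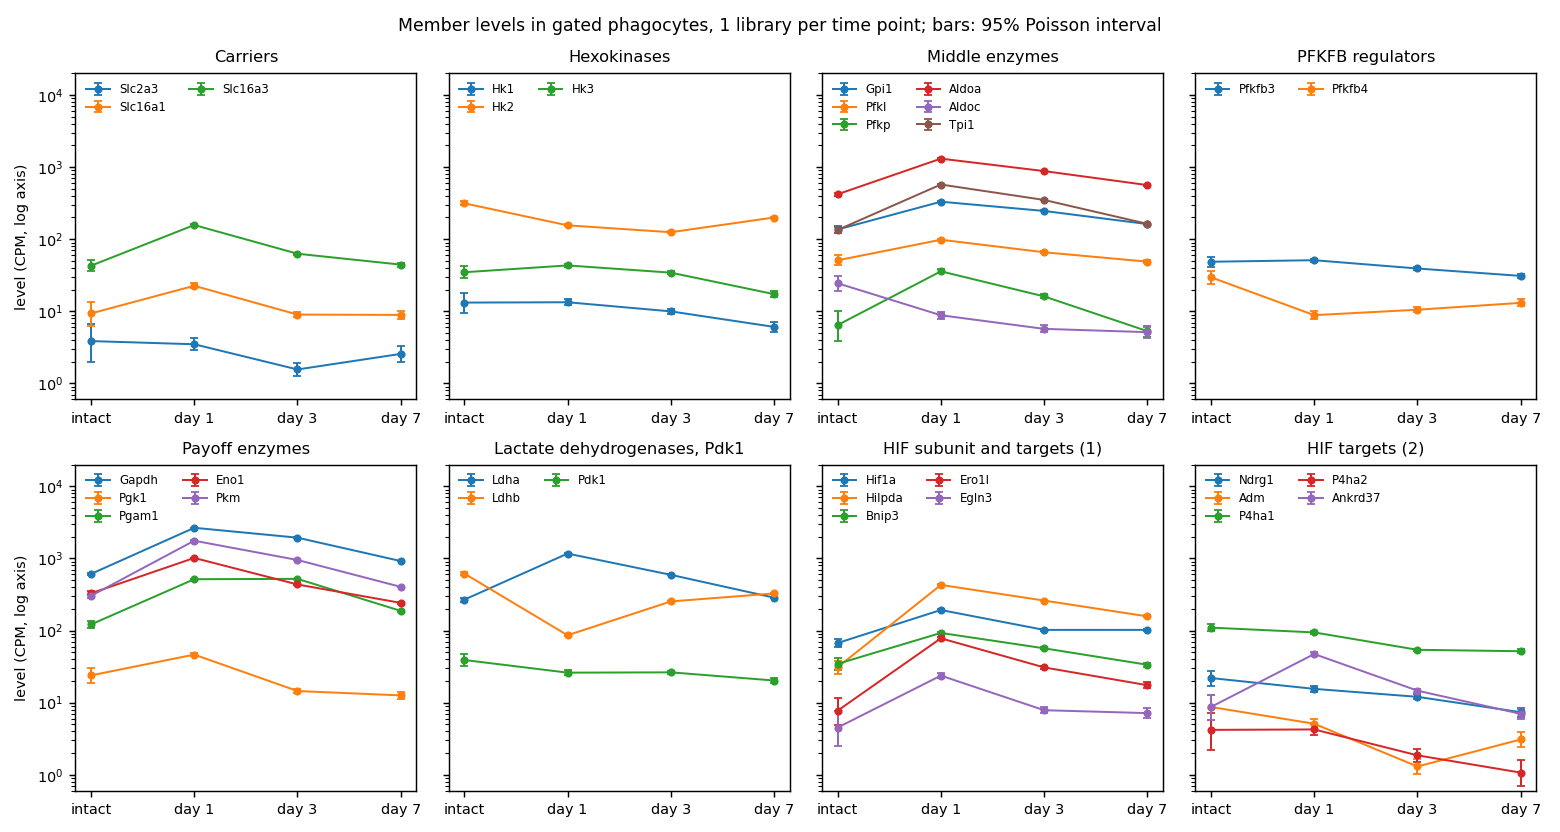
Level of each member (CPM, log axis) in gated phagocytes of the intact, day 1, day 3 and day 7 libraries, in panels by role. Points are single libraries and bars 95% Poisson intervals; most enzymes peak at day 1, for example Gapdh at 2655 CPM, while Ldhb is lowest there at 85.9 CPM.

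Among the carriers, Slc16a3, the monocarboxylate carrier MCT4 that exports lactate, stood at 42.9, 157, 62.9 and 44.4 CPM in phagocytes of intact, day 1, day 3 and day 7. Day 1 was 3.67-fold (3.09 to 4.39) above intact, and day 7 was back at the intact level. Slc16a1, the carrier MCT1 that works in either direction, read 9.35, 22.6, 9.02 and 8.91 CPM, 2.42-fold (1.67 to 3.64) higher at day 1. Slc2a3, a high-affinity glucose carrier, was scarce at 3.87, 3.5, 1.56 and 2.57 CPM and was 2.48-fold (1.23 to 4.54) lower at day 3. Its intact value rests on 12 UMIs, and the call at day 3 was lost under at least one alternative.

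The hexokinases trap glucose as glucose 6-phosphate. Hk2, the form most abundant in phagocytes, was 315, 156, 125 and 199.9 CPM, 2.02-fold (1.89 to 2.17) lower at day 1 and 2.52-fold (2.35 to 2.69) lower at day 3. Both calls were lost under at least one alternative. In microglia alone Hk2 was 334, 185, 181 and 232 CPM and did not pass 2-fold. Hk3, a form of myeloid cells, was 34.8, 43.3, 34.4 and 17.3 CPM and Hk1, the widespread form, 13.2, 13.4, 9.99 and 6.08 CPM, both at least 2-fold lower at day 7 only (2.01-fold and 2.17-fold). No hexokinase was therefore among the members called higher at day 1. The day 7 calls of Hk3 and Hk1 were also lost under at least one alternative.

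The middle enzymes carry glucose 6-phosphate to the 3-carbon sugars. Gpi1, the isomerase of the second step, was 136, 331, 246 and 162 CPM across the 4 libraries. Aldoa, an aldolase that splits the sugar, was 419.8, 1309, 879.8 and 563 CPM. Tpi1, which interconverts both products of the split, was 134, 573, 350.2 and 163 CPM. All of these were highest at day 1 and passed 2-fold, Tpi1 by 4.26-fold (3.87 to 4.71), Aldoa by 3.12-fold (2.95 to 3.30) and Gpi1 by 2.43-fold (2.20 to 2.68) over intact. Of the phosphofructokinases, which commit sugar to the pathway, Pfkp stood at 6.45, 35.9, 16.1 and 5.31 CPM and was 5.56-fold (3.58 to 9.15) higher at day 1. Pfkl stood at 50.9, 98.3, 65.9 and 48.8 CPM and stayed under 2-fold at day 1, at 1.93-fold. Aldoc, the aldolase of brain cells, ran the other way at 24.5, 8.82, 5.71 and 5.14 CPM and was 2.78-fold (2.12 to 3.59), 4.29-fold (3.30 to 5.52) and 4.77-fold (3.53 to 6.41) lower at days 1, 3 and 7.

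The PFKFB enzymes set the level of fructose 2,6-bisphosphate, an activator of phosphofructokinase. Pfkfb4 was 29.7, 8.86, 10.5 and 13.1 CPM and was lower than intact in all injured libraries, most at day 1 by 3.35-fold (2.61 to 4.26). Its call at day 7 was lost under at least one alternative. Pfkfb3 was 48.7, 51.1, 39.3 and 31.0 CPM and passed 2-fold in none of the 3 comparisons.

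The payoff enzymes produce ATP and pyruvate. Gapdh, which oxidises glyceraldehyde 3-phosphate, was 608, 2655, 1937 and 918 CPM and 4.37-fold (4.17 to 4.57) higher at day 1. Pkm, the pyruvate kinase of most tissues, was 302, 1757, 950.0 and 403 CPM and 5.81-fold (5.45 to 6.20) higher, the largest ratio of the listed glycolytic enzymes. Pgam1, a phosphoglycerate mutase, was 121, 514, 519.9 and 187 CPM, so that days 1 and 3 were alike at 4.24-fold and 4.29-fold. Its level thus held to day 3. Eno1, an enolase, was 327, 1014, 435 and 241 CPM, 3.1-fold (2.91 to 3.30) higher at day 1 and 1.33-fold at day 3. Pgk1, a phosphoglycerate kinase, was 23.9, 46.3, 14.5 and 12.6 CPM and was just under 2-fold higher at day 1 (1.94-fold). Gapdh, Pgk1, Ldha, Eno1 and Pgam1 are known to have near-identical pseudogene copies, so how their reads were shared out by the counting is uncertain.

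Lactate dehydrogenase subunits differed from intact in opposite directions. Ldha, the subunit that favours lactate formation, was 268, 1166, 592 and 285 CPM and 4.36-fold (4.07 to 4.67) higher at day 1. Ldhb, the subunit that favours lactate use, was 617, 85.9, 253 and 327 CPM and 7.17-fold (6.76 to 7.61) lower. Ldha made up 30.3%, 93.1%, 70.1% and 46.6% of the UMIs of both genes from intact to day 7. Pdk1 was 39.0, 26.0, 26.3 and 20.3 CPM and passed 2-fold in no comparison with intact.

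Hif1a, the regulated HIF subunit, was 67.1, 192, 102 and 102 CPM, 2.87-fold (2.5 to 3.31) higher at day 1. Of the 9 members counted as HIF targets, without Pdk1, 5 were higher and 0 lower at day 1, beside 14.9% and 23.8% of all genes. Hilpda, an inhibitor of lipolysis on lipid droplets, was 31.0, 429, 260.1 and 157 CPM and 13.8-fold (11.3 to 17.1) higher, the largest ratio of any member. It was still 8.4-fold (6.88 to 10.4) and 5.07-fold (4.14 to 6.28) higher at days 3 and 7. Ero1l, an oxidase that forms disulfide bonds in the endoplasmic reticulum, was 7.74, 77.9, 30.8 and 17.4 CPM and 10.1-fold (6.75 to 15.8) higher at day 1, with the intact value resting on 24 UMIs. Ankrd37, an ankyrin repeat protein, was 8.71, 47.2, 14.7 and 6.98 CPM and 5.42-fold (3.71 to 8.25) higher. Egln3, a prolyl hydroxylase that feeds back on HIF, was 4.51, 23.7, 7.85 and 7.16 CPM and 5.25-fold (3.11 to 9.65) higher, from 14 UMIs in the intact library. Bnip3, a receptor for mitophagy, was 34.5, 92.5, 56.6 and 33.5 CPM and 2.68-fold (2.21 to 3.28) higher. These 5 peaked at day 1. With scaling by totals, Hilpda and Ero1l were the only members still called higher at day 7. Of these calls, that of Ero1l was lost under at least 1 alternative.

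The other 4 targets were not higher at any time. Adm, a vasodilator peptide, was 8.71, 5.10, 1.30 and 3.09 CPM and 6.68-fold (4.14 to 10.5) lower at day 3. P4ha1 and P4ha2 are the catalytic subunits of collagen prolyl hydroxylase. P4ha1 was 109.6, 94.1, 54.0 and 51.6 CPM and P4ha2 4.19, 4.25, 1.86 and 1.07 CPM, 2.13-fold and 3.91-fold lower at day 7. Ndrg1, a stress-responsive protein, was 21.9, 15.5, 12 and 7.37 CPM and 2.98-fold (2.21 to 3.96) lower at day 7. The day 7 calls of P4ha1 and Ndrg1 were lost under at least one alternative. The HIF targets of this list thus did not form 1 pattern in phagocytes.

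From day 1 to day 3, 11 members were lower in phagocytes and 1 higher, beside 11.9% and 8.38% of all genes. The higher one was Ldhb, by 2.94-fold (2.82 to 3.07). Adm (3.91-fold), Ankrd37 (3.22-fold), Pgk1 (3.20-fold) and Egln3 (3.02-fold) had the largest ratios. From day 3 to day 7, 7 were lower and 1 higher, beside 6.28% and 4.95%. TMM scaling leaves 3 lower. The lower ones were Tpi1, Gapdh and Ldha, Pfkp (3.03-fold), Pgam1 (2.78-fold), Pkm (2.36-fold) and the HIF target Ankrd37 (2.10-fold), and the higher one was Adm (2.37-fold). The HIF targets Egln3 and Ero1l were thus lower mainly by day 3, and Gapdh and Pgam1 mainly after it.

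Per cell, the 15 glycolytic enzymes other than Gapdh together gave a median of 26.6 UMIs per 10000 in intact phagocytes, 68.9 at day 1, 36.5 at day 3 and 22.6 at day 7. The 10th to 90th percentile of day 1 cells ran from 37.0 to 131 and that of intact cells from 13.5 to 41.3. Most day 1 phagocytes thus lay above the intact median, and both ranges still overlapped.

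Since intact phagocytes were nearly all microglia, microglia were also read alone. In microglia, 13 of 32 members were higher at day 1 and 4 lower, beside 16.3% and 22.4% of all genes. At day 3 there were 5 and 6, beside 10.2% and 21.9%. At day 7 there were 2 and 8, beside 6.91% and 27.1%. TMM scaling gives 9 higher and 4 lower at day 3 and 8 and 3 at day 7. With totals the lower side at days 3 and 7 was close to the background. Pkm (5.67-fold), Gapdh (4.39-fold) and Ldha (4.25-fold) were about as far above intact in microglia as in all phagocytes at day 1. Ero1l, at 5.26, 39.3, 22.5 and 16.5 CPM from intact to day 7, was 7.47-fold (4.50 to 13.4) higher. Hilpda, at 21.4, 115, 83.9 and 122 CPM, was 5.39-fold (4.18 to 7.08) higher, less than the 13.8-fold of all phagocytes, a difference that was not tested.

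Some calls made over all phagocytes were not met in microglia alone. Bnip3 was 34.3, 38.5, 42.5 and 34.7 CPM in microglia and Ankrd37 8.76, 7.28, 7.52 and 6.74 CPM, both within 2-fold of intact at every time. Hif1a was 64.5, 103, 91.4 and 113 CPM and did not reach 2-fold at day 1 (1.59-fold), and Pfkp was 3.5, 6.49, 3.27 and 2.86 CPM (1.85-fold). Ndrg1 was 23.1, 2.90, 5.27 and 5.48 CPM and 7.97-fold (5.45 to 11.7) lower at day 1. Ldhb was 668, 139.8, 522 and 406 CPM in microglia, 4.78-fold (4.50 to 5.07) lower at day 1 and within 2-fold of intact at days 3 and 7. Aldoc (24.2, 6.77, 3.80 and 5.43 CPM) and Pfkfb4 (30.1, 6.77, 13.6 and 13.8 CPM) were lower in microglia at every time, as in all phagocytes. The Pfkfb4 calls of microglia at days 3 and 7 were lost under at least one alternative.

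**Figure D2:**
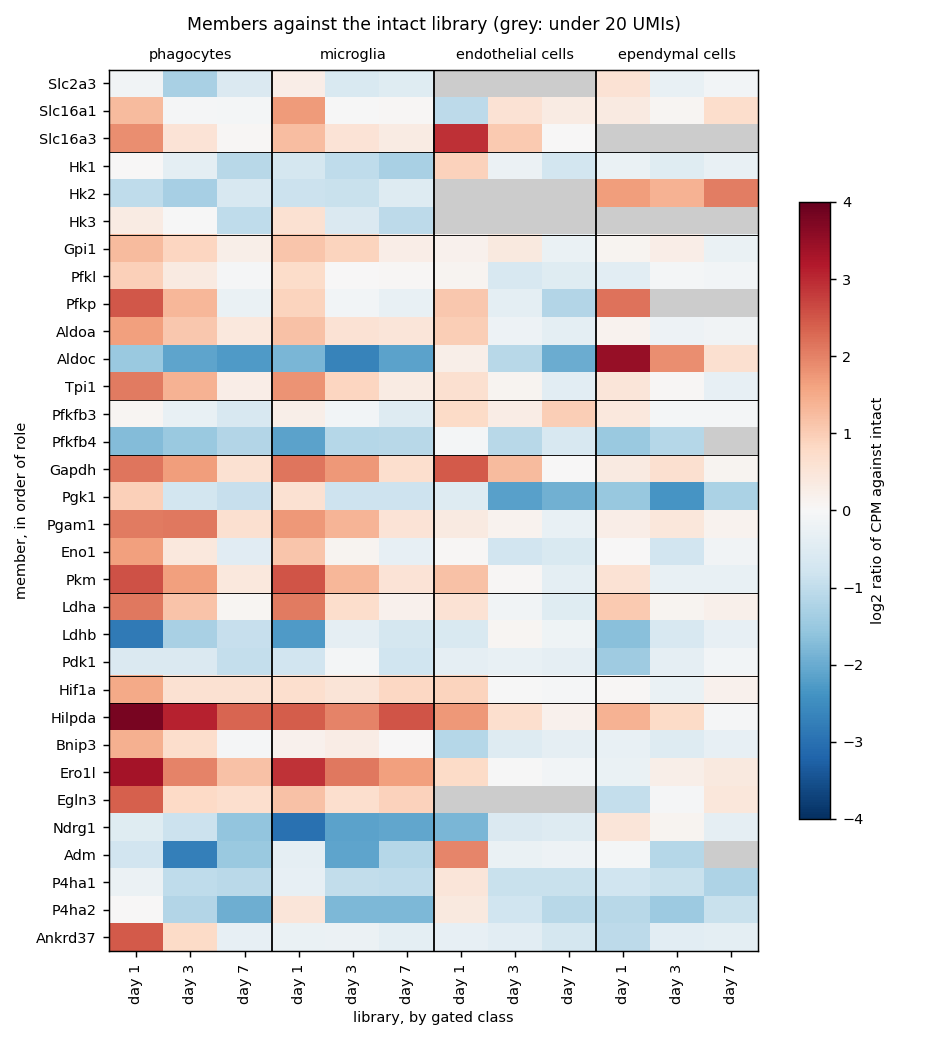
Colour gives the log2 ratio of CPM of each member (rows, in order of role) against the intact library at days 1, 3 and 7 in phagocytes, microglia, endothelial cells and ependymal cells (columns). Grey marks members with under 20 UMIs over both sums; Hilpda is above intact in all 4 classes at day 1, while Ankrd37 and Bnip3 are at least 2-fold above it in phagocytes and within 2-fold of it in microglia.

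Macrophages and microglia of the same library were then compared. This was chosen once the data had been seen, because the intact library held only 32 macrophages. At day 1, 12 of 32 members were higher in macrophages and 4 lower, beside 11.6% and 23.4% of all genes, with a member median of 0.75 against -0.33 for all genes. At day 3 the counts were 7 and 5, beside 7.93% and 18.1%, and TMM scaling gives 12 and 4. At day 7 they were 3 and 8 of 31, beside 8.93% and 12.1%, with a median of -0.04 against -0.01. The number of members higher in macrophages was thus largest at day 1 and lowest at day 7.

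Most HIF targets were higher in macrophages at day 1. Hilpda was 888 CPM in macrophages and 115 in microglia, 7.71-fold (7.35 to 8.08) higher. Ankrd37 was 107 against 7.28 CPM, 14.7-fold (12.2 to 17.7) higher. Ndrg1 was 33.8 against 2.90 CPM, 11.7-fold (8.70 to 15.9) higher. In all, 6 of the 9 targets were higher in macrophages and 1, Adm, was lower, beside 11.6% and 23.4% of all genes. Egln3 (44.6 against 9.39 CPM), Bnip3 (173 against 38.5) and Ero1l (135 against 39.3) were 4.75-fold, 4.49-fold and 3.45-fold higher. Hif1a itself was 325 against 103 CPM, 3.16-fold (2.99 to 3.35) higher. Summed over the 9 targets, macrophages held 1487 CPM and microglia 315.

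Of the enzymes and carriers at day 1, Pfkp was 78.7 CPM in macrophages against 6.49 in microglia, 12.1-fold (9.98 to 14.9) higher. Slc16a3 (2.80-fold), Hk1 (2.75-fold), Eno1 (2.40-fold) and Aldoa (2.05-fold) also passed 2-fold. Gapdh, Pkm and Ldha did not, at 1.07-fold, 1.27-fold and 1.23-fold. Ldhb was 8.66 against 139.8 CPM, 16.1-fold (13.3 to 19.8) lower in macrophages, and Slc2a3 (3.57-fold) and Slc16a1 (2.31-fold) were lower as well. Summed over the 15 enzymes other than Gapdh, macrophages held 9054 CPM and microglia 5848. Per cell the medians were 91.0 and 52.7 UMIs per 10000. Both classes differed in depth at day 1, with medians of 4647.5 UMIs per macrophage and 10275 per microglial cell, and 11 of 11 neutrophil markers were detected in both, at a summed 1789 and 908 CPM. The part of either in these differences was not tested.

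**Figure D3:**
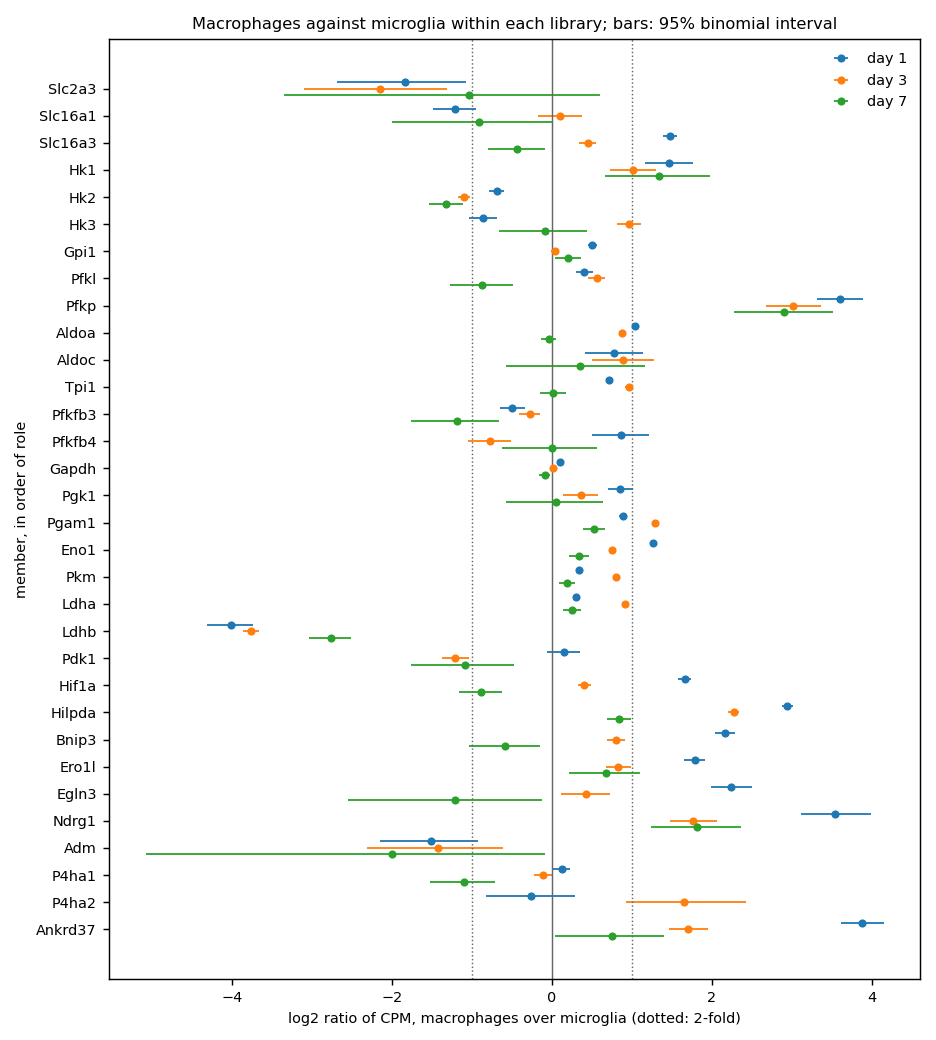
Log2 ratio of CPM of each member between macrophages and microglia of the same library at days 1, 3 and 7, with 95% binomial intervals and dotted lines at 2-fold. HIF targets such as Ankrd37 (3.87) and Hilpda (2.95) lie far to the right at day 1, and Ldhb lies to the left in every library.

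Within macrophages, 12 of 32 members were lower at day 3 than at day 1 and 1 was higher, beside 10.3% and 7.82% of all genes. Egln3 (44.6, 9.01 and 3.46 CPM at days 1, 3 and 7) was 4.95-fold (4.20 to 5.85) lower, Ankrd37 (107, 24.5 and 11.4 CPM) 4.36-fold (3.94 to 4.82) and Pgk1 (63.4, 16.5 and 13.4 CPM) 3.83-fold (3.38 to 4.35). The higher member was Ldhb, at 8.66, 38.7 and 59.9 CPM. Between day 3 and day 7, 14 of 30 members were lower and 0 higher, beside 6.64% and 8.4%. Of these 14 calls, 9 held under every alternative, and Aldoa, Ankrd37, Gapdh, P4ha1 and Slc16a3 did not. The stricter gate kept 199 of the 461 macrophages of day 7. The members lower by day 7 included 4 of 8 HIF targets with enough UMIs and enzymes such as Pgam1 (708, 725 and 241 CPM, 3.01-fold lower), Tpi1 (742, 463 and 165 CPM, 2.81-fold) and Pkm (2001, 1219 and 463 CPM, 2.63-fold). Hif1a in macrophages was 325, 121 and 61.4 CPM, and Hilpda was 888, 406 and 219 CPM. Macrophages at day 3 and day 7 kept Hilpda above microglia, by 4.84-fold and 1.79-fold, the latter under the 2-fold threshold.

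Members of the same reaction were read as shares of their family's UMIs. Ldha held 99.3%, 95.3% and 84.8% of lactate dehydrogenase UMIs in macrophages at days 1, 3 and 7 and 27.3%, 88.4%, 44.2% and 40.9% in microglia from intact to day 7. The Ldha share of microglia was therefore highest at day 1, while macrophages held mainly Ldha in every library with enough cells. Hk2 held 87.5%, 75.2%, 85.9% and 91.3% of hexokinase UMIs in microglia and 69.2%, 59.2% and 76.1% in macrophages, where Hk3 reached 31.8% (30.2 to 33.5) at day 3. Pfkl held 93.7%, 93.1%, 94.2% and 95% of the Pfkl and Pfkp UMIs in microglia and only 59.5% (57.4 to 61.4) in macrophages at day 1. Slc16a3 held 95.2%, 88.7% and 88.0% of the monocarboxylate carrier UMIs in macrophages and 80.9%, 75.5%, 86.1% and 83.9% in microglia.

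**Figure D4:**
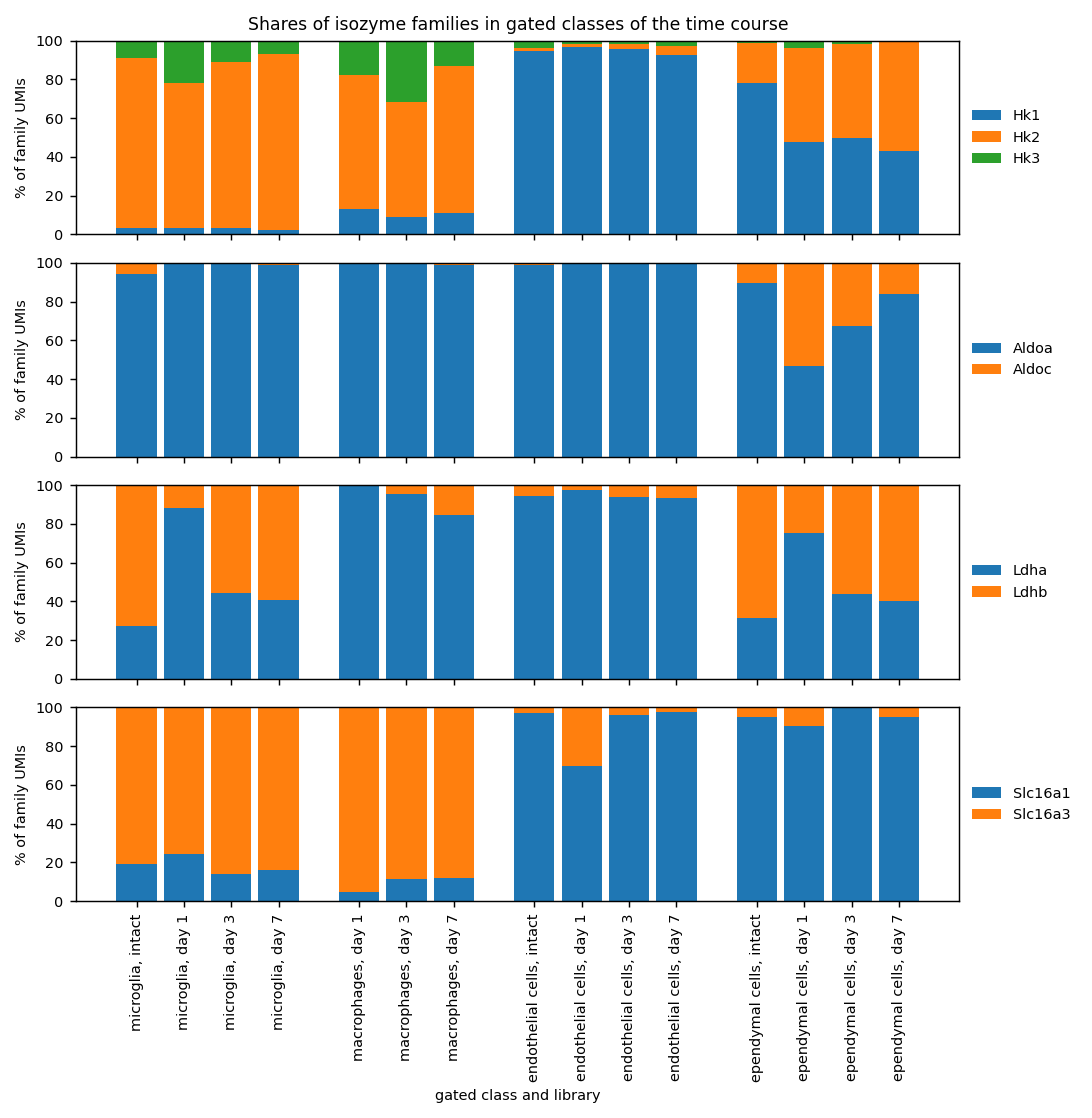
Stacked bars give the percent of UMIs held by each gene of 4 families (Hk1, Hk2 and Hk3, Aldoa and Aldoc, Ldha and Ldhb, Slc16a1 and Slc16a3) in gated microglia, macrophages, endothelial and ependymal cells of each time-course library with at least 50 such cells. The Ldha share of microglia is 88.4% at day 1 and 27.3% in the intact library, and Aldoc holds the larger part of aldolase UMIs only in ependymal cells of day 1.

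Endothelial cells line the vessels and numbered 1136, 1176, 1351 and 1199 from intact to day 7. At day 1, 6 of 28 members were higher than intact and 3 lower, beside 12.8% and 11.6% of all genes. At day 3 the counts were 2 and 3, beside 7.36% and 7.61%, and at day 7 0 and 4, beside 4.02% and 5.6%. TMM scaling gives 2 and 1 at day 3 and 1 and 3 at day 7. Slc2a3, Hk2, Hk3 and Egln3 had too few UMIs. Slc16a3 was 4.51, 33.9, 9.36 and 4.59 CPM and 7.52-fold (4.65 to 12.9) higher at day 1. Gapdh was 294, 1599.9, 713 and 296 CPM and 5.43-fold (5.12 to 5.78) higher. Adm, which endothelial cells are known to secrete, was 59.1, 229, 49.7 and 51.1 CPM, 3.87-fold (3.38 to 4.46) higher at day 1 alone. Its phagocyte level was highest in the intact library. Hilpda (40.3, 133, 63.8 and 45.6 CPM), Pkm (459, 1026, 472 and 347 CPM) and Pfkp (15.0, 31.5, 11.6 and 6.60 CPM) were 3.30-fold, 2.24-fold and 2.10-fold higher.

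Ndrg1, Bnip3 and Slc16a1 were lower in endothelial cells at day 1. Ndrg1 was 652, 182, 432 and 456 CPM, 3.58-fold (3.35 to 3.83) lower. Bnip3 was 74.6, 33.6, 52.3 and 58.6 CPM, 2.22-fold (1.86 to 2.65) lower. Slc16a1, the main monocarboxylate carrier of these cells, was 160.0, 77.8, 237 and 203 CPM, 2.06-fold (1.83 to 2.31) lower, a call lost under at least one alternative. All of these were nearer to intact at days 3 and 7. Pgk1 was 31.3, 22.1, 7.02 and 8.32 CPM, 4.46-fold (3.22 to 6.25) lower at day 3 and 3.76-fold (2.49 to 5.84) at day 7. Hk1 held 94.4%, 96.7%, 95.7% and 92.5% of endothelial hexokinase UMIs, and Slc16a1 97.3%, 69.7%, 96.2% and 97.8% of carrier UMIs. Ldha held 94.5%, 97.5%, 93.7% and 93.2% of lactate dehydrogenase UMIs. Endothelial cells thus held mainly Hk1 in every library, where phagocytes held mainly Hk2.

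Ependymal cells line the central canal and numbered 571, 341, 375 and 343. At day 1, 5 of 30 members were higher and 6 lower, beside 11% and 14.2% of all genes. At day 3 there were 2 and 4 of 29, beside 7.03% and 7.59%, and at day 7 1 and 2 of 27, beside 5.58% and 7.39%. TMM scaling gives 5 and 4 at day 1. At days 3 and 7 the shares were close to the background except the lower share of day 3. Aldoc was 119, 1333, 435 and 186 CPM and 11.2-fold (9.78 to 12.9) higher at day 1, so that Aldoa held 89.9%, 46.7%, 67.6% and 83.7% of aldolase UMIs from intact to day 7. Astrocyte markers summed to 720.0, 3458, 900.1 and 757 CPM in the same gated cells, with 10 of 10 detected in the intact library and 8 of 10 later (Slc7a10 and Gjb6 at 0), and ependymal markers to 11082, 4043, 8493 and 13043 CPM. The part of astrocytes or their RNA in the Aldoc difference was not tested. Of the 341 cells gated as ependymal at day 1, 136 lay near the gate's threshold, and the stricter gate gives 3 higher and 3 lower members. With clusters in place of single cells the log2 ratio was 2.47, the lowest of all alternatives.

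Ldha was 178, 373, 194 and 207 CPM in ependymal cells and 2.09-fold (1.83 to 2.38) higher at day 1, while Ldhb was 387, 122, 250.2 and 308 CPM and 3.18-fold (2.75 to 3.70) lower. Ldha accordingly held 31.5%, 75.4%, 43.7% and 40.2% of the pair. Hk2 was 8.06, 26.0, 20.9 and 33.0 CPM on 15, 51, 27 and 29 UMIs, 3.22-fold (1.78 to 6.17), 2.60-fold (1.33 to 5.25) and 4.09-fold (2.12 to 8.21) higher at days 1, 3 and 7. Hilpda (11.8, 31.0, 20.1 and 11.4 CPM, 2.63-fold) and Pfkp (7 and 33 UMIs, 4.47-fold) were higher at day 1. Phagocyte markers stood at a median of 2.69% of their phagocyte level in these cells at day 1. Pgk1 (95.1, 33.6, 18.6 and 39.8 CPM, 2.83-fold), Pdk1 (22, 8.14, 17.0 and 20.5 CPM, 2.71-fold), Pfkfb4 (2.82-fold), P4ha2 (2.16-fold) and Ankrd37 (2.06-fold) were lower. Slc16a3 and Hk3 had too few UMIs. Ependymal cells and microglia therefore shared a higher Ldha share at day 1, and differed in Hk2 and Aldoc.

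Other classes had under 50 cells in the intact library, and only their levels are given. In neutrophils of days 1 and 7, Slc2a3 was 73.1 and 81.8 CPM, against 3.5 and 2.57 in phagocytes, and Hk3 was 79.2 and 67.6 CPM. Hk3 held 57.0% and 48.1% of neutrophil hexokinase UMIs. Of the 200 and 167 cells gated as neutrophils on these days, 88 and 77 lay near the gate's threshold. Fibroblasts of days 1, 3 and 7 held Adm at 110.0, 39.5 and 21.6 CPM and P4ha2 at 38.1, 68.7 and 58.4 CPM, above phagocytes at every time, and Hk2 was 85.7%, 89.6% and 77.0% of their hexokinase UMIs. Oligodendrocyte precursors, read on 65 to 187 cells, held Aldoc at 486, 248 and 289 CPM beside Aldoa at 1253, 294 and 354. In mural cells of days 3 and 7, Hilpda rested on 8 and 15 UMIs and Pkm was 523 and 373 CPM. In T or NK cells of day 1 Pfkp and Pdk1 were 76.5 CPM each, on 10 UMIs. B or plasma cells of day 1 had the lowest Aldoa, Eno1, Gapdh, Ldha and Pkm of the 8 classes with at least 50 cells, for example Pkm at 333 CPM.

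Further genes of these pathways were read at day 1 in phagocytes, where 14.9% of all genes were higher and 23.8% lower. Those named have the highest and lowest log2 ratios of CPM plus 10, which damps scarce genes, and the values given are log2 ratios of CPM against intact. Of 17 further glycolysis genes with enough UMIs, 7 were higher and 5 lower. The highest were Gpd2, Minpp1 and Pdk3 (1.76, 1.25 and 1.23) and the lowest Slc16a7, Pdk2 and Galm (-2.07, -2.46 and -1.42). Of 21 further HIF pathway genes, 7 were higher and 4 lower. The highest were Vegfa, Fam162a and Siah2 (4.33, 2.16 and 2.84) and the lowest Epas1, Rora and Vhl (-3.04, -2.26 and -0.84). Vegfa, the vascular growth factor and a classic HIF target, was 2.26, 45.4, 19.1 and 12.3 CPM in the 4 libraries, 20.1-fold (9.73 to 50.1) higher at day 1 on 7 intact UMIs. Of 17 pyruvate and pentose phosphate genes, 1 was higher and 0 lower, with Tkt, Cs and Pgd (1.08, 0.96 and 0.85) highest and Mpc1, Idh2 and Pdhb (-0.86, -0.48 and -0.45) lowest. The medians of these lists were -0.10, -0.05 and 0.20, beside -0.20 for all genes.

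Immediate early genes are known to respond to tissue dissociation, and their counts stand against the same 14.9% and 23.8% of all genes. Of 19, 1 was higher and 8 lower in phagocytes at day 1, with Jund, Klf4 and Klf2 (2.29, 0.80 and 0.59) highest and Jun, Btg2 and Klf6 (-2.33, -2.20 and -1.76) lowest. Their sum was 14427, 6984, 6038 and 9844 CPM from intact to day 7, highest in the intact library. Whether the dissociation bears on the members was not tested.

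The last question is whether the members differed between MPSS and PBS. In phagocytes (714 PBS and 1036 MPSS cells), 0 of 28 members were higher and 1 was lower, beside 1.59% and 2.16% of all genes. The member median was -0.20, against -0.01 for all genes. Pfkp was the lower one, at 6.13 and 2.62 CPM in PBS and MPSS, 2.34-fold (1.51 to 3.67). Slc16a3 was 16.4 and 9.89 CPM (1.66-fold lower), Tpi1 60.8 and 35.4 CPM (1.72-fold lower) and Slc16a1 2.90 and 1.5 CPM (1.94-fold lower), all under 2-fold. Hk1 and Pfkfb4 had too few UMIs, and Slc2a3 had 0 UMIs in both libraries, which allows a level of up to 0.322 and 0.225 CPM. Slc2a3 was at 0 in every other class with at least 50 cells as well. Whether the annotation used for counting bears on this was not tested.

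Most members lay close between the injected libraries. Hk2 was 311 and 270.5 CPM in PBS and MPSS, Hk3 40.7 and 28.9, Gpi1 153 and 150.2 and Pfkl 44.0 and 45.7. Aldoa was 717 and 677 CPM, Pgk1 241 and 242, Pgam1 159 and 153, Eno1 317 and 275, Ldha 292 and 253 and Ldhb 37.0 and 31.8. Lower values were listed for Pkm (13.5 and 10.0 CPM), Pfkfb3 (17.1 and 14.8), Pdk1 (19.9 and 23.5) and Aldoc (1.72 and 2.02). Gapdh has no row in these tables, and whether the annotation used for counting bears on the low values of Pkm was not tested. None of these passed 2-fold, and with 1 library a side that does not show that they were equal.

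Hif1a was 37.5 and 37.5 CPM in PBS and MPSS phagocytes. No HIF target passed 2-fold between them. Ndrg1 was 54.0 and 46.3 CPM, P4ha1 62.1 and 83.7, Ero1l 25 and 26.8, P4ha2 17.8 and 24.7 and Bnip3 18.7 and 14.9. Scarcer targets were Adm (8.28 and 8.02 CPM), Egln3 (6.66 and 4.57), Ankrd37 (4.51 and 3.37) and Hilpda (1.61 and 1.57 CPM on 15 and 21 UMIs). P4ha1 and P4ha2, the collagen hydroxylases, were the targets with the highest ratios, 1.35-fold (1.22 to 1.49) and 1.38-fold (1.14 to 1.68) above PBS.

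Classes of the injected pair gave few calls. In microglia, 0 of 25 members were higher and 2 lower, beside 2.09% and 1.77% of all genes. Pfkp (8.84 and 2.35 CPM in PBS and MPSS on 23 and 9 UMIs) was 3.76-fold (1.68 to 9.24) lower and Hk3 (21.5 and 9.13 CPM) 2.36-fold (1.52 to 3.70) lower. In macrophages, 0 of 24 were higher and 2 lower, beside 1.72% and 2.39%. Tpi1 (79.6 and 37.4 CPM) was 2.13-fold (1.78 to 2.54) lower and Slc16a3 (29.6 and 13.5 CPM) 2.19-fold (1.63 to 2.96) lower. The Slc16a3 call reverses, to a log2 ratio of 0.58, when levels are averaged over cells. In oligodendrocytes, 1 of 23 was higher and 0 lower, beside 1.4% and 2.56%. It was Pkm, on 5 and 19 UMIs, 2.04-fold (0.735 to 6.97) higher, and it reverses to -0.80 under the same average. In fibroblasts, 1 of 24 was higher and 0 lower, beside 2.09% and 3.38%. It was Pfkfb3, on 4 and 24 UMIs, 4.33-fold (1.49 to 17.2) higher. Of the lower calls, both in macrophages and that of Hk3 in microglia were lost under at least one alternative.

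**Figure D5:**
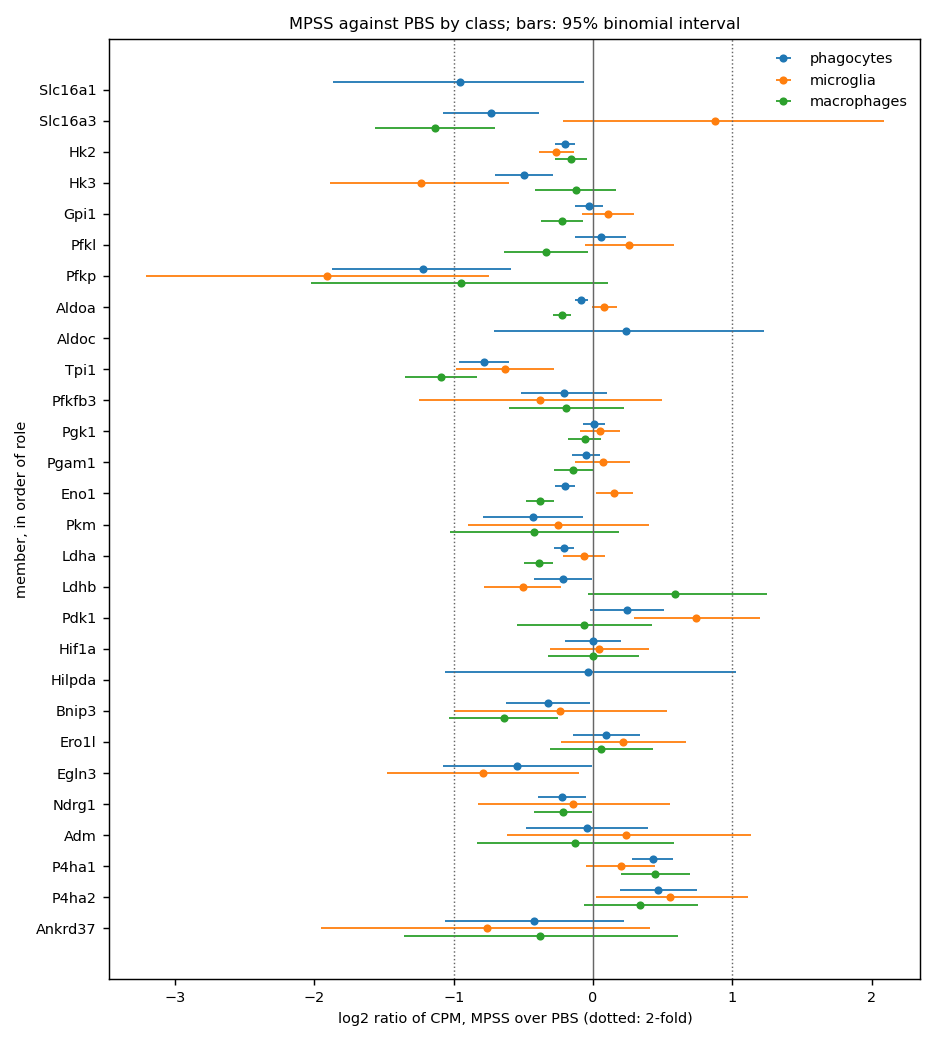
Log2 ratio of CPM of each member between the MPSS and PBS libraries in phagocytes, microglia and macrophages, with 95% binomial intervals and dotted lines at 2-fold. Most points lie between the dotted lines, and Pfkp in phagocytes (-1.22) and microglia (-1.91) lies left of them.

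The contrast of macrophages with microglia was also read in the injected libraries. With PBS, 5 of 25 members were higher in macrophages and 2 lower, beside 7.56% and 10.5% of all genes. With MPSS, 4 of 25 were higher and 3 lower, beside 7.27% and 10.2%. Ndrg1 (87.7 and 75.5 CPM in macrophages of PBS and MPSS, 12.7 and 11.5 in microglia) was 6.92-fold (4.83 to 10.2) and 6.57-fold (4.81 to 9.18) higher in macrophages. Ldhb (8.04 and 12.1 CPM in macrophages, 83.0 and 58.5 in microglia) was 10.3-fold (7.06 to 15.6) and 4.82-fold (3.68 to 6.39) lower. Egln3 was 1.30 and 1.54 CPM in macrophages and 15.8 and 9.13 in microglia, 12.1-fold (4.80 to 39.4) and 5.94-fold (2.80 to 14.1) lower. Ndrg1 and Ldhb had the same direction in every library where the 2 classes were compared. Egln3 was higher in macrophages at day 1 and lower at day 7 and in both injected libraries. Its call at day 7 was lost under at least one alternative. Ldha held 97.9% and 96.0% of lactate dehydrogenase UMIs in macrophages and 74.8% and 80.1% in microglia of PBS and MPSS.

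No gene of the wider lists was at least 2-fold higher with MPSS in phagocytes, beside 1.59% of all genes higher and 2.16% lower. Of 14 further glycolysis genes, 0 were higher and 0 lower, with Galm, Pgm1 and Gpd1 (0.49, 0.26 and 0.39) highest and Eno3, Gpd2 and Slc2a1 (-0.70, -0.21 and -0.18) lowest on the log2 scale. Of 14 further HIF pathway genes the counts were 0 and 0, with Plod1, Vegfa and Cited2 (0.26, 0.29 and 0.17) highest and Vhl, Ddit4 and Siah2 (-0.71, -0.46 and -0.31) lowest. Of 16 pyruvate and pentose phosphate genes they were 0 and 0, with Pgls and Mpc1 (0.26 and 0.07) among the highest and Mpc2, Tkt and Pdp1 (-0.35, -0.15 and -0.57) lowest. Of 16 immediate early genes, 0 were higher and 2 lower, with Fos, Atf3 and Nr4a1 (0.21, 0.20 and 0.16) highest and Hspa1b, Klf6 and Egr1 (-1.45, -0.67 and -0.31) lowest. Vegfa was 10.5 and 12.9 CPM in PBS and MPSS phagocytes.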

How the data were processed

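The deposited files hold UMI counts per gene and cell, not normalized, which the authors made from droplet (10x) libraries. Per the submitters' processing notes they used Cell Ranger 3.0.2, and per the file headers the injected matrices came from Cell Ranger 3.1.0. The genome build is not given in the sources used here. The members and all gene lists were chosen with earlier results of these data known, and the thresholds for assigning cells were set after the data were seen, as were the comparisons of macrophages with microglia.

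Kept cells had 200 or more genes, 500 or more UMIs and no more than 20% of UMIs from mitochondrial genes (1377 of 1513 PBS and 2091 of 2339 MPSS barcodes, all time-course ones). A cell was assigned to the class with the highest marker score if the score reached 0.2, was at least 1.5 times the next and rested on 3 markers, and phagocytes were split into microglia and macrophages by the same ratio. Cells in no class made up 1.85 to 13.2% of a library. Phagocytes in neither part of the split, among them 201 of 714 with PBS and 279 of 1036 with MPSS, are not in that figure. Doublets were not called; cells in which a second class scored close were left out by the ratio. Classes under 50 cells were not used. Intervals are exact (Poisson for levels, Clopper-Pearson for shares, binomial for ratios) at 95%. Members with under 20 UMIs over both sums were not called, and a count of 0 was read as at most 3. Every member was named, and from the further lists the 3 highest and 3 lowest genes, of which 1 is not reported here. Ratios, intervals and calls were tested on simulated data that held counting error only. Shares of UMIs are not corrected for length. Python 3.11.15, numpy 2.4.6, scipy 1.17.1, scanpy 1.11.5 (clusters), R 4.3.3 and edgeR 4.0.16 (TMM factors only) were used. With 1 library per group no p-value was computed. Alternatives were other scalings, UMI minimums, gates, clusters, means over cells and cell filters.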

Additional observations from a re-analysis of the deposited data

Results flagged for a closer look

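These results are given because a member was at least 2-fold higher than intact in one class of cells and at least 2-fold lower in another at the same day. Each class has 1 library per day, so the differences between classes were not tested, and the values are log2 ratios of CPM against intact. Aldoc, an aldolase, was at 3.49 in ependymal cells at day 1, against -1.47 in phagocytes and -1.84 in microglia. At day 3 Aldoc was at 1.87 in ependymal cells, -2.10 in phagocytes, -2.67 in microglia and -1.12 in endothelial cells. Hk2, a hexokinase, was at 1.69 in ependymal cells and -1.02 in phagocytes at day 1, and at 1.38 and -1.33 at day 3. Ankrd37, a HIF target, was at 2.44 in phagocytes and -1.04 in ependymal cells at day 1. Bnip3, a mitophagy receptor, was at 1.42 in phagocytes and -1.15 in endothelial cells at day 1. In microglia alone, which made up nearly all intact phagocytes, Ankrd37 and Bnip3 stayed within 2-fold of intact. Slc16a1, a lactate carrier, was at 1.27 in phagocytes, 1.7 in microglia and -1.04 in endothelial cells at day 1. Several of these calls were lost under at least 1 alternative. They were Hk2 in phagocytes at days 1 and 3 and Ankrd37 in ependymal cells at day 1. In endothelial cells they were Slc16a1 at day 1 and Aldoc at day 3.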

How the results depend on the processing

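No paired analysis was possible because each group has 1 library. Over all comparisons, 492 of 572 recomputed counts of called members stayed within 1.5 times the reported count and 80 did not, and 2 called member ratios changed direction. For day 1 against intact in phagocytes, 17 of 17 higher and 3 of 4 lower calls (not Hk2) held under every alternative run. In microglia 12 of 13 (not Egln3) and 4 of 4 held, and in endothelial cells 6 of 6 and 2 of 3 (not Slc16a1). At day 3, 8 of 9 higher and 3 of 8 lower calls held in phagocytes, and 5 of 5 and 4 of 6 in microglia. At day 7 the figures were 1 of 2 and 2 of 8 in phagocytes and 2 of 2 and 3 of 8 in microglia. For macrophages against microglia at day 7, 3 of 3 higher and 3 of 8 lower calls held. With MPSS, 1 of 1 lower call held in phagocytes and 0 of 2 in macrophages.

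With TMM scaling, phagocytes had 14 higher and 3 lower members at day 3, 6 and 3 at day 7 and 3 lower from day 3 to day 7. Microglia had 9 higher at day 3 and 8 higher and 3 lower at day 7, endothelial cells 1 lower at day 3 and 1 higher at day 7, and macrophages against microglia 12 higher at day 3. With median-of-ratios scaling phagocytes had 15 and 3 at day 3, 7 and 2 at day 7 and 3 lower from day 3 to day 7, microglia 9 higher at day 3 and 8 and 3 at day 7, endothelial cells 1 lower at day 3 and 1 higher and 2 lower at day 7, and macrophages against microglia 13 higher at day 3. These follow from the shift of all log2 ratios. Without mitochondrial and ribosomal protein genes in the total, endothelial cells had 1 lower at day 3 and 1 higher at day 7.

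With a minimum of 10 UMIs there were 1 higher in macrophages from day 3 to day 7, 5 lower in endothelial cells at day 3, 4 lower in ependymal cells at day 7, and 2 higher and 1 lower in fibroblasts with MPSS. With a minimum of 1 UMI these became 1, 5, 4, and 2 and 3, with 2 higher in ependymal cells at day 7, 1 higher in microglia and 2 lower in oligodendrocytes with MPSS, and 4 (PBS) and 5 (MPSS) lower in macrophages against microglia. With a minimum of 100 UMIs endothelial cells had 1 higher and 1 lower at day 3 and 2 lower at day 7, ependymal cells 2 and 2 at day 1, 1 and 1 at day 3 and 0 higher at day 7, and macrophages against microglia 3 lower at day 3 and 1 lower with PBS. With MPSS the same minimum left 0 lower in phagocytes and microglia and 0 higher in oligodendrocytes and fibroblasts. Here fewer or more members were tested.

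As means over cells, phagocytes had 1 higher at day 7, endothelial cells 0 higher and 1 lower at day 3, macrophages against microglia 13 higher at day 3, and with MPSS microglia 2, oligodendrocytes 0 and fibroblasts 2 higher. The 2 reversed ratios came from this setting: Slc16a3 in macrophages (log2 ratio 0.58) and Pkm in oligodendrocytes (-0.80) with MPSS. The stricter gate gave 1 higher in endothelial cells at day 7, 3 and 3 in ependymal cells at day 1 and 2 lower at day 3, 14 higher in macrophages against microglia at day 3, and 1 higher in macrophages and 0 in oligodendrocytes with MPSS. Clusters gave 0 higher in phagocytes and 1 in macrophages from day 3 to day 7, 1 higher in endothelial cells at day 7, and 1 lower in microglia and 2 higher in oligodendrocytes with MPSS. Without the cells of the highest 5% of UMIs there were 1 higher in phagocytes at day 7, 1 and 1 in endothelial cells at day 3, 12 higher in macrophages against microglia at day 3, and 1 lower in macrophages and 0 higher in oligodendrocytes with MPSS. With at most 10% mitochondrial and at least 1000 UMIs, 2 were lower in phagocytes with MPSS. For these settings the cause was not tested. All alternatives for the comparisons of macrophages with microglia were chosen after seeing the data. Depth limits scarce members most: Slc2a3, Adm, Egln3 and P4ha2 rest on few UMIs in most classes.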
